A study of Homo sapiens with 7 samples.

Results

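KLHL2, KLHL3, KLHL6, KLHL9, KLHL14, KLHL21 and KLHL24 are members of the Kelch-like (KLHL) gene family, and their transcripts were followed in RL and JeKo-1 cells with and without a BTK inhibitor. The 7 genes, of 22257 in the deposited tables, were chosen by name with their responses in both lines already known, so those responses are given below as a description and are not tested. Each gene is represented by its RefSeq transcript with the highest mean raw count over the 7 libraries. RL and JeKo-1 are human B-cell lymphoma lines that the submitters describe as mantle cell lymphoma (MCL). The 4 groups were untreated RL cells (2 libraries), RL cells exposed for 6 h to the inhibitor (2 libraries), untreated JeKo-1 cells (1 library) and JeKo-1 cells exposed for 6 h (2 libraries). The series title names the inhibitor as ibrutinib, and no dose is given in the sources used here. No engineered allele is stated for any group, and the 2 lines differ in more than their response, so a difference between them is one between 2 particular lines.

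KLHL proteins carry a BTB domain, which binds the scaffold cullin 3 (CUL3), and a Kelch propeller, which holds the substrate. Together with the RING protein RBX1 they form ubiquitin ligases, and attachment of the ubiquitin-like protein NEDD8 to the cullin switches these ligases on. BTK is the kinase that relays signals from the B-cell receptor (BCR), and several KLHL proteins are known from that setting: KLHL6 is needed for germinal centre B cells, and KLHL14 has been tied to turnover of BCR subunits.

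Promoter sequence, as listed by RefSeq for GRCh38.p14, is shown for the 3 genes with the highest log2 change in treated RL cells. Each line gives the 250 bases before the transcription start, 5′ to 3′ on the strand of the gene. Capitals mark a match to TGANTCA, the AP-1 motif, where 1 was found. KLHL21 lies at chr1:6602870-6603119 on the minus strand, KLHL24 at chr3:183635373-183635622 on the plus strand and KLHL6 at chr3:183555707-183555956 on the minus strand.
KLHL21: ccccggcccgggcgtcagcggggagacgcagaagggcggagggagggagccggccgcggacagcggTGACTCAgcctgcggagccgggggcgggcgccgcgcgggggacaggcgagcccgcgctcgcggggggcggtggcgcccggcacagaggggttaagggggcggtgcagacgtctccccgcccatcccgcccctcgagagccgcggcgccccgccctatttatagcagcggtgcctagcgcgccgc
KLHL24: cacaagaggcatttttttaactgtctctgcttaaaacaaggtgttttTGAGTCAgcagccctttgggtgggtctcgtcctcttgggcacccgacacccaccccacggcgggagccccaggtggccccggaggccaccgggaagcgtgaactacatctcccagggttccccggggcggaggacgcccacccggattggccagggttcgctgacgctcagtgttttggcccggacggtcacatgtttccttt
KLHL6: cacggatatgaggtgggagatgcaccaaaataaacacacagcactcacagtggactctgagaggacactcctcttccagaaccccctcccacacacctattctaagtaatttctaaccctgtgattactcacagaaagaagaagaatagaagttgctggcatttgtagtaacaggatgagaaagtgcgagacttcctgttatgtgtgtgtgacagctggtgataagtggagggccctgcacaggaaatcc
The AP-1 match of KLHL21 starts at base -184 from the transcription start, and that of KLHL24 at base -203. A match to it, which reads the same on both strands, was present in 7.71% of 35116 promoters spanning 250 bases before to 50 after the start. Searched on either strand, the KLHL6 window held no match to that motif or to 4 others. The FOXO motif, GTAAACA, was present in 3.42% of all promoters. The E-box, CACGTG, was present in 7.26%. The CRE motif, TGACGTCA, was present in 1.85%. The ETS motif, CCGGAAGT, was present in 4.14% of promoters. The motifs were chosen after the sequences had been seen, and a match is a description of the letters only. Promoters were matched for 6 of the 7 genes. Those of KLHL2, KLHL3 and KLHL9 held no AP-1 match. KLHL3 had a FOXO match at base -142 of 1 start site, and KLHL2 an ETS match at base 37 of 1 start site. Any link between a match and a response was not tested.

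Counted once per gene, the libraries held between 19.1 M and 33.5 M reads, and treated RL had both the shallowest and the deepest of them. The MCL markers CCND1, SOX11 and CD5 together reached 718 to 855 CPM (counts per 1000000) in RL libraries, against 415 to 469 in JeKo-1, although CD5 lay between 0.102 and 0.283 CPM in the JeKo-1 libraries. T and NK cell markers (7 genes) summed to at most 0.229 CPM in either line, with CD7 at 0 in RL and CD3G, CD2 and KLRD1 at 0 in JeKo-1. Myeloid markers (6 genes) summed to at most 2.89 CPM, with FCGR3A and MPO at 0 in both lines. Epithelial and stromal markers (6 genes) added up to between 88.2 and 92.5 CPM in RL, where EPCAM alone had 75.6 to 82.0 CPM, and between 0.311 and 1.83 CPM in JeKo-1, with EPCAM and CDH1 at 0. Nothing in the labels says that replicate libraries were grown as separate cultures. The p-values below therefore speak of variation among these libraries alone, and that variation may be technical.

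In RL cells the inhibitor left KLHL21, KLHL24, KLHL6 and KLHL14 at higher levels, while in JeKo-1 cells KLHL24 was higher and KLHL14 was lower. KLHL21, with a log2 fold change of 2.10 in RL, had one of -0.20 in JeKo-1. In RL, KLHL2, KLHL9 and KLHL3 lay closer to their controls, with log2 fold changes between -0.16 and 0.07. In the quasi-likelihood test of edgeR, p-values were adjusted by the Benjamini-Hochberg method over all transcripts. At an adjusted p of 0.05, 30.4% of 14932 genes passed in RL, 15.1% as higher and 15.3% as lower. In JeKo-1, 28.3% of 14050 genes passed, 13.4% as higher and 14.9% as lower, and 6 of the 7 genes had enough reads to enter the fit. The 7 genes were chosen with these contrasts known, so none of their calls is given. In bulk RNA, fewer cells with a transcript and less transcript per cell cannot be told apart.

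**Figure D1:**
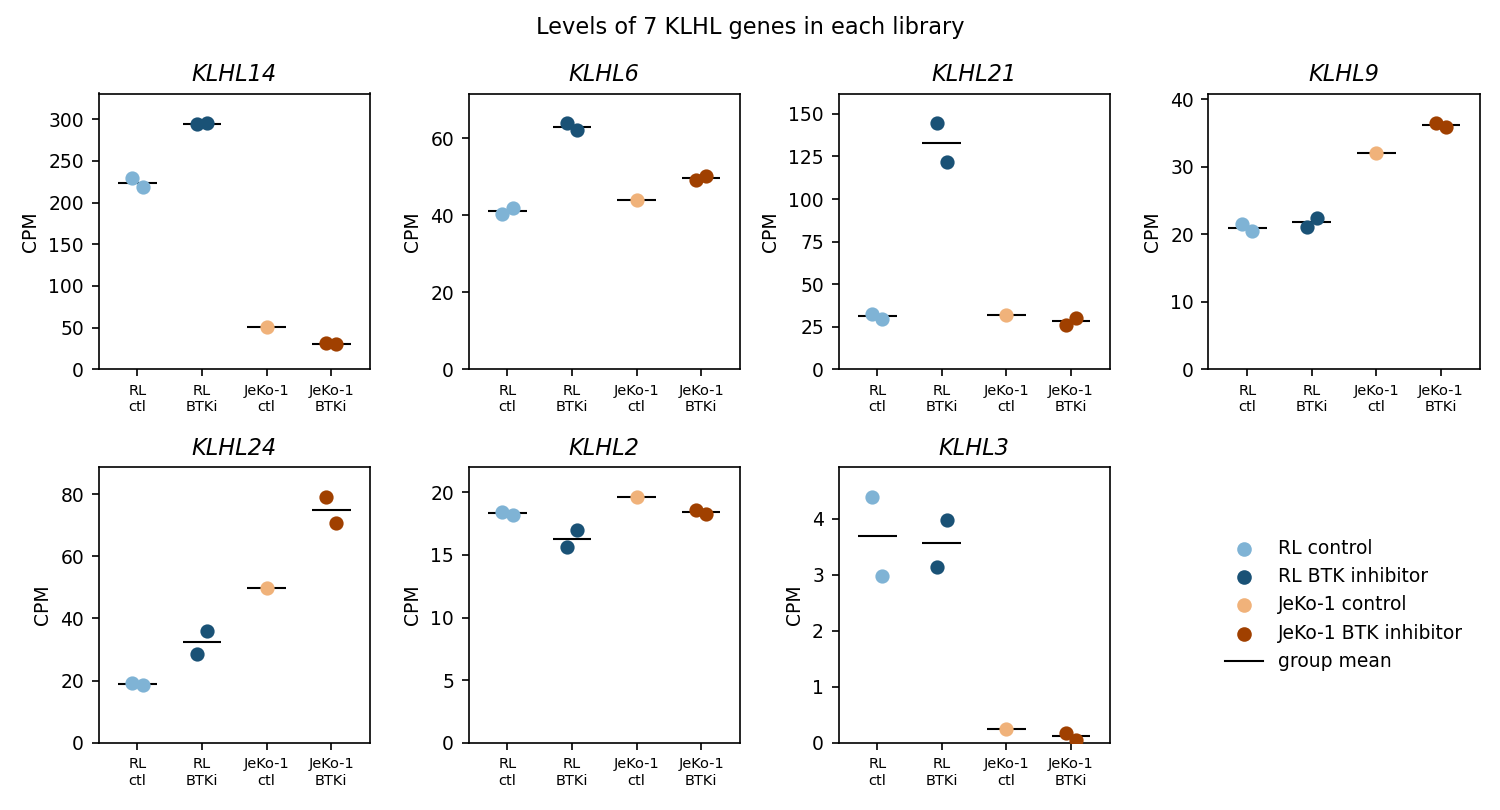
CPM of each of the 7 genes (y axis, linear, from 0) in every library, by line and treatment (x axis; ctl, untreated control; BTKi, BTK inhibitor for 6 h). Points are libraries and bars are group means; KLHL21 reaches 121 and 145 CPM in treated RL cells and 32.4 CPM or less in the other 5 libraries.

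KLHL14, an adaptor reported to promote turnover of BCR subunits in B cells, had the highest level of the 7 genes in RL, per kilobase of transcript as well as in CPM. It measured 229 and 219 CPM in the RL controls and 294 and 296 CPM in treated RL cells. In JeKo-1 it measured 50.8 CPM in the control and 31.3 and 29.8 CPM in the treated libraries. The treated libraries lay above both controls in RL and below the control in JeKo-1. The log2 fold change was 0.40 ± 0.05 (SE, n = 2 against 2) in RL and -0.74 ± 0.08 (SE, n = 2 against 1) in JeKo-1.

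KLHL14 differed between the lines before treatment. The comparison of the JeKo-1 control with the RL controls involves no treated library, but these controls also enter the responses known when the genes were chosen. There KLHL14 was lower in JeKo-1 by a log2 change of -2.14 ± 0.07 (SE), given as a description without a p-value. The single JeKo-1 control has no spread of its own and was assumed to vary like the other groups. At this contrast 76.4% of 15845 genes passed an adjusted p of 0.05 in edgeR's quasi-likelihood test of all 4 groups. A called difference between the lines was therefore the usual outcome.

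The BCR subunits CD79A and CD79B, which KLHL14 has been reported to act on as proteins, both changed at the RNA level. CD79B, the beta chain, rose in both lines, from 370 and 348 CPM to 740 and 725 CPM in treated RL and from 334 CPM to 616 and 630 CPM in JeKo-1. Its log2 fold change was 1.03 in RL (adjusted p = 1.05e-07) and 0.89 in JeKo-1 (adjusted p = 1.92e-35). Very small p-values in JeKo-1, here and below, rest on 1 residual degree of freedom and the spread shared across genes. They do not mark stronger evidence than those of RL. CD79A, the alpha chain, rose in RL, from 399 and 397 CPM to 504 and 487 CPM (log2 fold change 0.32, adjusted p = 0.000266). In JeKo-1 CD79A fell from 147 CPM to 119 and 127 CPM (log2 fold change -0.26, adjusted p = 0.000385), a call that was lost without the first treated library (adjusted p = 0.0571). The 2 responses of CD79A differed by -0.57 on the log2 scale, JeKo-1 minus RL (adjusted p = 3.05e-05, edgeR's quasi-likelihood test of the line-by-treatment term), whereas for CD79B the difference was -0.13 (adjusted p = 0.295).

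KLHL6, an adaptor expressed in lymphoid cells and required for germinal centre B cells, measured 40.4 and 41.8 CPM in the RL controls and 63.9 and 62.1 CPM in treated RL cells. In JeKo-1 it measured 44.0 CPM in the control and 49.1 and 50.3 CPM after treatment. The treated libraries lay above the controls in both lines, by a wider margin in RL. The log2 fold change was 0.62 ± 0.05 (SE) in RL and 0.17 ± 0.07 (SE) in JeKo-1. Untreated levels differed by 0.10 ± 0.07 (SE) on the log2 scale between the lines.

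Reported partners of KLHL6 are Roquin-2 (RC3H2), an RNA-binding protein that destabilises target transcripts, and the receptor NOTCH2. RC3H2 rose in JeKo-1 from 64.0 CPM to 80.8 and 76.4 CPM (log2 fold change 0.29, adjusted p = 0.000276), and in RL its log2 change was 0.04 (adjusted p = 0.567). The difference of these responses was 0.26 on the log2 scale (adjusted p = 0.0375). That call was lost without either RL control (0.0874 and 0.0843), the second treated RL library (0.0918) or the first treated JeKo-1 library (0.122). TNFAIP3, an inhibitor of NF-kB signalling whose transcript is a known Roquin-2 target, fell in both lines, from 85.4 and 86.8 CPM to 55.2 and 56.2 CPM in RL and from 6.85 CPM to 3.90 and 4.80 CPM in JeKo-1. Its log2 fold change was -0.62 in RL (adjusted p = 2.84e-06) and -0.66 in JeKo-1 (adjusted p = 0.000283, but 0.197 in DESeq2). NOTCH2 fell by 0.19 in RL (adjusted p = 0.0162), a call lost without RL control 2 (adjusted p = 0.173), and by 0.64 in JeKo-1 (adjusted p = 1.21e-17), both on the log2 scale.

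KLHL21, an adaptor that acts on Aurora B in mitosis and has been reported to act on the kinase IKK beta, showed the largest response of the 7 genes. It measured 32.4 and 29.7 CPM in the RL controls and 145 and 121 CPM in treated RL cells. In JeKo-1 it measured 32.1 CPM in the control and 26.1 and 30.1 CPM in the treated libraries. Both treated RL libraries lay far above all other libraries, and both treated JeKo-1 libraries lay below their control. The log2 fold change was 2.10 ± 0.08 (SE) in RL, which is 4.30-fold, and -0.20 ± 0.08 (SE) in JeKo-1. Before treatment the lines differed by 0.05 ± 0.10 (SE) on the log2 scale. The log2 ratios in the authors' deposited table were 2.10 and -0.19.

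KLHL9, a partner of KLHL13 in the control of Aurora B on mitotic chromosomes, measured 21.4 and 20.5 CPM in the RL controls and 21.1 and 22.5 CPM in treated RL cells. In JeKo-1 it measured 32.0 CPM in the control and 36.5 and 36.0 CPM after treatment. The RL groups overlapped, and the JeKo-1 libraries were all above the RL libraries. The log2 fold change was 0.07 ± 0.07 (SE) in RL and 0.17 ± 0.08 (SE) in JeKo-1. The untreated JeKo-1 level was higher than that of RL by a log2 change of 0.61 ± 0.08 (SE). KLHL13 itself was counted 461, 580, 348 and 658 times in the RL libraries and 5, 0 and 0 times in those of JeKo-1, which is too few there for a fold change.

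Aurora B is the mitotic target of KLHL9 and KLHL21. Of its partners in the chromosomal passenger complex, BIRC5 (survivin) and INCENP rose in RL. BIRC5 went from 103 and 99.4 CPM to 123 and 120 CPM (log2 fold change 0.28, adjusted p = 0.000913). INCENP went from 75.7 and 72.7 CPM to 87.8 and 83.3 CPM (log2 fold change 0.21, adjusted p = 0.00808), and its call was lost without RL control 2 (adjusted p = 0.102). AURKB, which encodes Aurora B, rose by 0.16 in RL (adjusted p = 0.0332), a call lost without either control (0.147 and 0.159) or the first treated library (0.198). The remaining subunit, CDCA8, had a log2 change of 0.11 (adjusted p = 0.101). In JeKo-1 the log2 changes of BIRC5, INCENP, AURKB and CDCA8 were 0.09, -0.05, 0.13 and 0.02, and the smallest adjusted p was 0.182. IKBKB, which encodes IKK beta, had log2 changes of -0.15 in RL (adjusted p = 0.0901) and -0.17 in JeKo-1 (adjusted p = 0.137).

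**Figure D2:**
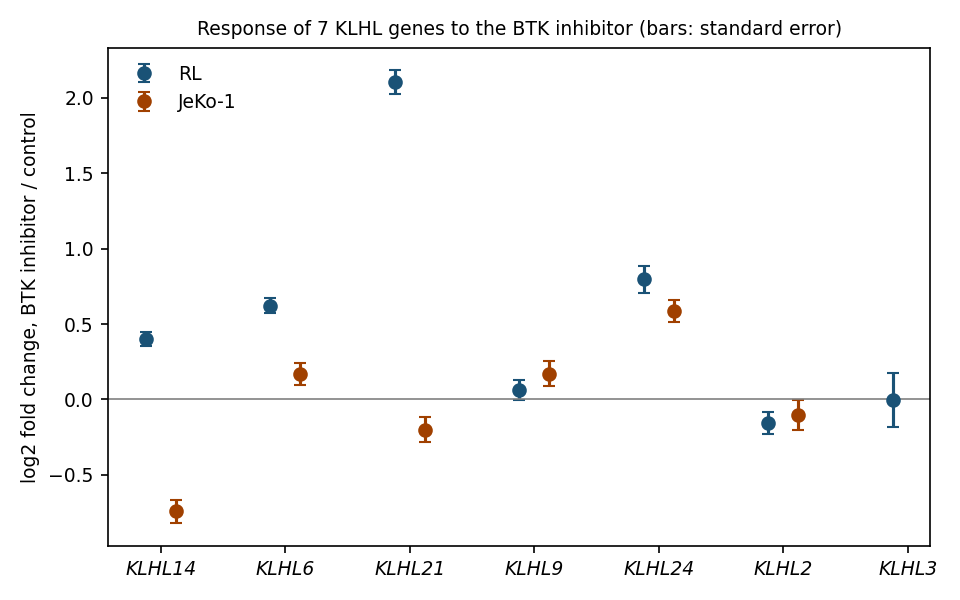
Log2 fold change of BTK inhibitor against control (y axis) for each of the 7 genes in RL and JeKo-1, with standard errors; KLHL3 was not tested in JeKo-1. KLHL21 stands at 2.10 in RL and -0.20 in JeKo-1, KLHL14 at 0.40 and -0.74, and KLHL24 above 0 in both lines.

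KLHL24, an adaptor known for regulating keratin 14 in skin, was higher after treatment in both lines. It measured 19.1 and 18.5 CPM in the RL controls and 28.7 and 35.9 CPM in treated RL cells. In JeKo-1 it measured 49.7 CPM in the control and 79.2 and 70.9 CPM in the treated libraries. No treated library overlapped its controls, and the treated RL libraries remained below the untreated JeKo-1 library. The log2 fold change was 0.80 ± 0.09 (SE) in RL and 0.59 ± 0.07 (SE) in JeKo-1. Untreated JeKo-1 exceeded untreated RL by a log2 change of 1.40 ± 0.10 (SE). KRT14, its known substrate in keratinocytes, had a count of 0 in all 7 libraries.

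KLHL2 and KLHL3 are close paralogs that target WNK kinases, regulators of ion transport studied mainly in kidney. KLHL2 measured 18.5 and 18.2 CPM in the RL controls and 15.6 and 17.0 CPM in treated RL cells. In JeKo-1 it measured 19.7 CPM in the control and 18.6 and 18.2 CPM in the treated libraries. Treated libraries were the lower ones in both lines, by small margins, with log2 fold changes of -0.16 ± 0.07 (SE) in RL and -0.10 ± 0.10 (SE) in JeKo-1. Untreated levels differed by 0.10 ± 0.09 (SE) on the log2 scale.

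KLHL3 was present in RL at 4.40 and 2.97 CPM in the controls and 3.15 and 3.97 CPM in the treated libraries. The groups overlapped, and the log2 fold change was -0.01 ± 0.18 (SE). In JeKo-1 it was counted 10 times in the control and 6 and 2 times in the treated libraries, which was too few to be tested for a response. Untreated JeKo-1 was lower than untreated RL by a log2 change of -3.84 ± 0.40 (SE). WNK1, the most abundant of the 3 listed WNK transcripts in CPM per kilobase, fell by 0.28 on the log2 scale in JeKo-1 (adjusted p = 0.000177, and 0.0523 without the first treated library), from 136 CPM to 109 and 116 CPM. In RL its log2 change was -0.09 (adjusted p = 0.184), and WNK3 and WNK4 stayed at or below 1.73 CPM in every library.

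Across the 7 genes, the treated libraries lay wholly above or below the controls for 5 genes in RL (4 above, 1 below), where the groups of 65.1% of tested genes did not overlap. In JeKo-1, with its single control, they did so for all 7 (3 above, 4 below), against 82.4% of tested genes. KLHL3 is counted among those below, although it had too few reads there to be among the tested genes. In the comparison of untreated lines, KLHL9 and KLHL24 were higher in JeKo-1, by 0.61 and 1.40 on the log2 scale. KLHL3 and KLHL14 were lower, at -3.84 and -2.14, and KLHL2, KLHL6 and KLHL21 differed by 0.10, 0.10 and 0.05. Of all tested genes, 37.2% passed as higher and 39.1% as lower. The untreated libraries also enter the responses known at the choice, so the member values are a description and no calls are given for them.

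Divided by transcript length, KLHL14 led the 7 genes in untreated RL with 53.1 and 50.8 CPM per kilobase. KLHL2 followed at 7.56 and 7.45, above KLHL21 at 7.23 and 6.61 and KLHL6 at 6.41 and 6.64 CPM per kilobase. The ranges of KLHL21 and KLHL6 overlapped, so their order was not resolved. KLHL9 had 3.76 and 3.59, KLHL24 2.59 and 2.51 and KLHL3 0.646 and 0.436 CPM per kilobase. After treatment, KLHL21 stood at the second place in RL with 32.2 and 27.1 CPM per kilobase, behind KLHL14 at 68.3 and 68.5, and the ranges of KLHL24 (3.88 and 4.86) and KLHL9 (3.70 and 3.94) overlapped.

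The order was flatter in JeKo-1. In its control, KLHL14 had 11.8 CPM per kilobase, and KLHL2, KLHL21, KLHL6, KLHL24 and KLHL9 lay between 8.05 and 5.60, in that order and without replicates to separate neighbours. In treated JeKo-1 cells KLHL24 led with 10.7 and 9.60 CPM per kilobase, followed by KLHL6 at 7.79 and 7.99 and KLHL2 at 7.61 and 7.47. KLHL14 had 7.25 and 6.90 CPM per kilobase, and KLHL9 (6.39 and 6.30) lay within the range of KLHL21 (5.82 and 6.71). KLHL3 stayed at or below 0.0373 CPM per kilobase in every JeKo-1 library.

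Measured per kilobase, the 7 genes together made up 41.7% of the summed KLHL transcripts in untreated RL and 52.9% in treated RL, over the 33 of 34 KLHL genes in the table that had a length. KLHL14 alone supplied 27.2% and 29.3%, and KLHL21 3.62% and 12.7%. In JeKo-1 the 7 genes made up 32.7% of the summed transcripts in the control and 31.8% after treatment, with KLHL14 at 8.31% and 4.96%. The family thus had a different leading gene in each line: KLHL14 in RL, and in JeKo-1 KLHL12, an adaptor known for its part in COPII coat assembly, at 12.1% and 13.9%.

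The other KLHL genes are the listed genes of the family left after the described genes were taken out with their responses known. That choice therefore shaped this set too, and the list was drawn up with earlier results of these data known. The shares below are a description, and nothing is read from their comparison with all tested genes. Of 34 listed genes, 31 were in the table and 27 were tested in RL. There, 6 rose and 4 fell, which is 37% against 30.4% of all tested genes, with a median log2 change of 0.01 for the list and 0.01 for all tested genes. In JeKo-1, 5 of 26 rose and 5 fell, 38.5% against 28.3%, with medians of -0.09 and -0.01. Calls that held on leaving out each library in turn numbered 3 of 10 in RL (KLHL18, KLHL26 and KLHL33). In JeKo-1 only the treated libraries could be left out, and 3 of 10 calls held (KLHL18, KLHL23 and KLHL33). All JeKo-1 calls rest on the single control.

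KLHL18, an adaptor reported to act on Aurora A, fell in both lines. It went from 29.3 and 28.1 CPM to 24.3 and 22.8 CPM in RL (log2 fold change -0.29, adjusted p = 0.0043) and from 29.2 CPM to 19.8 and 21.2 CPM in JeKo-1 (log2 fold change -0.52, adjusted p = 1.49e-07). KLHL33 fell in RL from 13.8 and 13.6 CPM to 7.71 and 7.49 CPM (log2 fold change -0.84, adjusted p = 1.57e-05). In JeKo-1 KLHL33 was scarce, with 30 counts in the control and 4 and 9 after treatment (log2 fold change -2.07). It passed the read filter there through the control alone, where it was highest, and DESeq2 gave it no adjusted p. Nothing is read from its JeKo-1 call. KLHL23 rose in JeKo-1 from 14.3 CPM to 18.9 and 18.6 CPM (log2 fold change 0.38, adjusted p = 0.00211, but 0.158 in DESeq2), and in RL its log2 change was -0.09 (adjusted p = 0.222). None of the other KLHL genes tested in RL reached the log2 change of KLHL21, as the plot of the family shows. KLHL21 was set apart from them with its response known, so this ranking is a description.

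**Figure D3:**
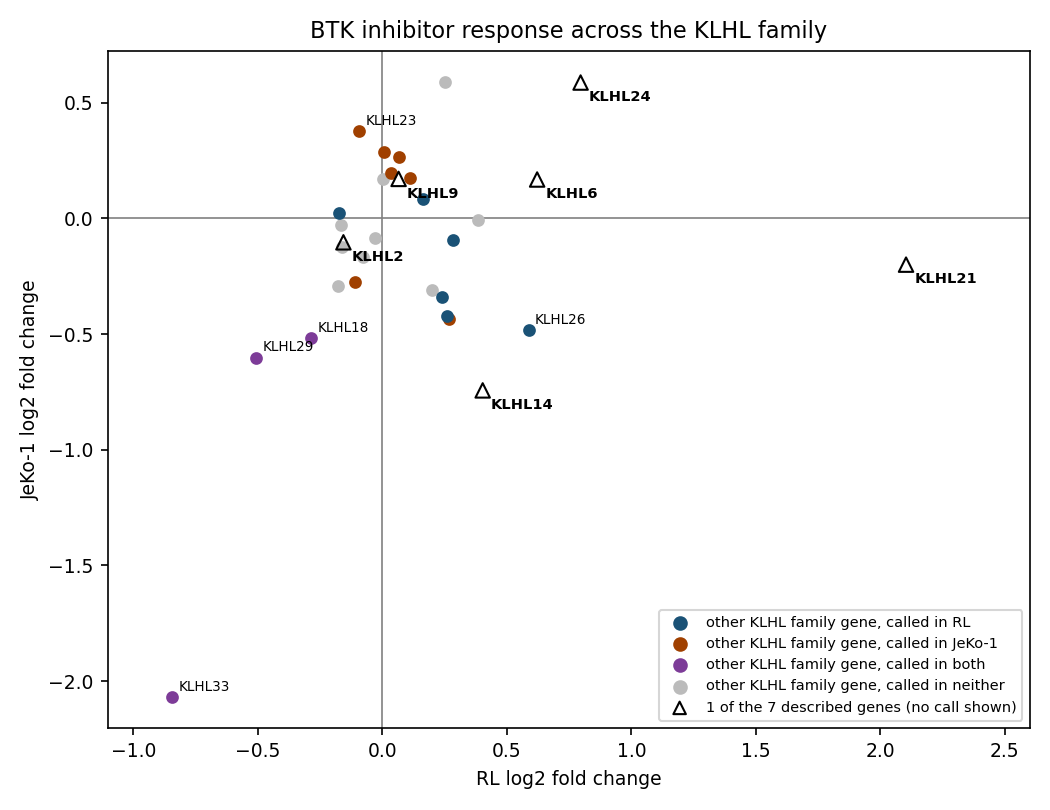
Log2 fold change in RL (x axis) against log2 fold change in JeKo-1 (y axis) for KLHL genes tested in both lines; filled points are the other KLHL genes, coloured by the line in which they passed an adjusted p of 0.05, and open triangles are 6 of the 7 described genes. KLHL21 lies far to the right at 2.10 and -0.20, and KLHL33 lies at the lower left at -0.84 and -2.07. The named filled points are KLHL29 and those whose call held on leaving out each library in turn, except the JeKo-1 control.

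The test of the line-by-treatment term passed for 7 of 28 other KLHL genes, or 25%, against 17.8% of 15845 genes (8.82% higher and 8.95% lower in JeKo-1). In 6 of them the response was lower in JeKo-1 than in RL, and in 1, KLHL23, it was higher. KLHL13, at 5, 0 and 0 counts in JeKo-1, was among the 6, and its call was lost without either treated JeKo-1 library (adjusted p = 0.112 and 0.1). For the 7 described genes the difference, JeKo-1 minus RL, was -2.29 for KLHL21, -1.13 for KLHL14 and -0.44 for KLHL6 on the log2 scale. It was -0.20 ± 0.13 (SE) for KLHL24, 0.07 ± 0.12 (SE) for KLHL2 and 0.12 ± 0.10 (SE) for KLHL9. KLHL3 had -1.16 ± 0.84 (SE), with 10, 6 and 2 counts in JeKo-1. These differences are a description, because both responses were known when the genes were chosen. The other KLHL genes are what that choice left, so nothing is read from their share of calls.

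In the ligase core that KLHL proteins plug into, log2 changes did not exceed 0.17. CUL3, the scaffold, measured 87.3 and 89.0 CPM in the RL controls and 86.3 and 90.7 CPM after treatment, with a log2 change of 0.01 (adjusted p = 0.87), and its log2 change in JeKo-1 was -0.05 (adjusted p = 0.61). RBX1, the RING subunit, had a log2 change of 0.01 in RL (adjusted p = 0.917) and rose by 0.17 in JeKo-1 (adjusted p = 0.0383). That JeKo-1 call was already lost in edgeR's joint fit of 4 groups with all libraries kept (adjusted p = 0.0836). Its loss without either treated JeKo-1 library came with the same change of model. The call was also lost with upper quartile scaling, with no filter and in DESeq2 (adjusted p = 0.242). KEAP1, a relative of the KLHL adaptors that restrains the oxidative stress factor NRF2, had log2 changes of -0.03 (adjusted p = 0.761) and -0.08 (adjusted p = 0.433).

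Of 29 genes for CUL3 and its NEDD8 cycle, none rose and 5 fell in RL, which is 17.2% against 30.4% of all tested genes, with a median log2 change of -0.06. In JeKo-1, 3 rose and 2 fell, again 17.2%, with a median of -0.03. The 2 calls in RL that held on leaving out each library were those of DCUN1D5, a co-factor for NEDD8 attachment, and COPS2, a subunit of the signalosome that removes NEDD8. DCUN1D5 fell from 43.6 and 44.2 CPM to 30.7 and 32.2 CPM (log2 fold change -0.47, adjusted p = 4.54e-05), and COPS2 fell from 38.8 and 37.2 CPM to 31.5 and 28.99 CPM (log2 fold change -0.33, adjusted p = 0.00139). In JeKo-1 the call that held on leaving out either treated library was that of NAE1, a subunit of the NEDD8-activating enzyme. NAE1 rose from 90.3 CPM to 112 and 111 CPM (log2 fold change 0.30, adjusted p = 8.02e-05).

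Among 33 other BTB adaptors for CUL3, 4 rose and 6 fell in RL (30.3% against 30.4% of all tested genes), and 4 rose and 8 fell in JeKo-1 (36.4% against 28.3%). The largest change was that of BTBD3, known for dendrite orientation in neurons of mice, which rose in JeKo-1 from 20.7 CPM to 147 and 142 CPM (log2 fold change 2.80, adjusted p at most 7.86e-09 on leaving out 1 treated library). In RL BTBD3 lay between 7.68 and 9.17 CPM, with a log2 change of 0.04 (adjusted p = 0.82), and the difference of the responses was 2.77 on the log2 scale (adjusted p = 5.48e-11). KBTBD8, an adaptor for neural crest specification, fell in both lines, from 97.5 and 89.3 CPM to 61.9 and 66.8 CPM in RL (log2 fold change -0.53, adjusted p = 4.26e-05) and from 24.8 CPM to 15.0 and 14.0 CPM in JeKo-1 (log2 fold change -0.78, adjusted p = 5.78e-14). Over the 22 genes reported as targets of KLHL adaptors or tied to them, 6 of 21 tested rose and 2 fell in RL (38.1% against 30.4%), and 3 of 20 rose and 4 fell in JeKo-1 (35% against 28.3%).

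The genes beside KLHL21 on chromosome 1 were also higher in treated RL cells. In the RefSeq order, ZBTB48, a zinc-finger protein that binds telomeres, is next to KLHL21 on one side and PHF13, a chromatin reader, on the other. ZBTB48 rose in RL from 21.9 and 19.9 CPM to 83.6 and 69.0 CPM (log2 fold change 1.87, adjusted p = 8.02e-08), and PHF13 rose from 10.4 and 10.2 CPM to 17.6 and 15.1 CPM (log2 fold change 0.66, adjusted p = 0.00018). In JeKo-1 the log2 changes were 0.28 for ZBTB48 (adjusted p = 0.0264, but 0.0724 in the joint fit of 4 groups) and -0.20 for PHF13 (adjusted p = 0.35).

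The next 3 genes past ZBTB48 and past PHF13 were added after their values had been seen. Of all 8 neighbours, 5 rose in RL, where 15.1% of tested genes rose, and 1 fell. TAS1R1, a taste receptor subunit, rose by a log2 change of 3.33, from 0.898 and 0.919 CPM to 9.84 and 8.49 CPM, and was too scarce to be tested in JeKo-1. NOL9, a kinase for ribosomal RNA processing, rose by 0.83 and PLEKHG5 by 1.17 on the log2 scale. THAP3 and CAMTA1 had log2 changes of -0.04 and 0.02, and DNAJC11 fell by 0.22, a call lost without RL control 2 (adjusted p = 0.0635). In the GENCODE 29 annotation no counted gene shares exon bases with any of the 7 genes, and reads were not assigned to a strand by the kit used.

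**Figure D4:**
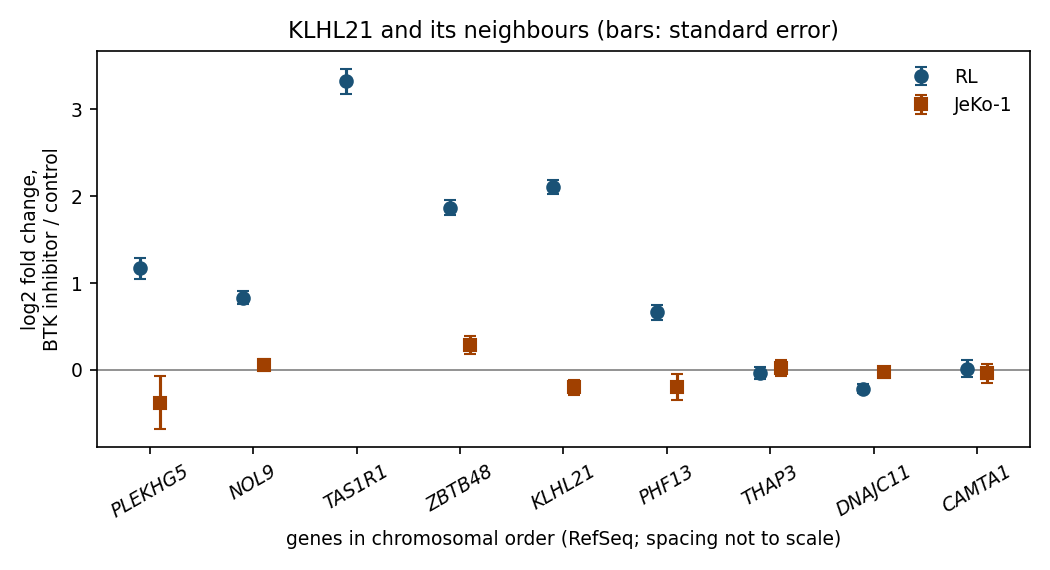
Log2 fold change of BTK inhibitor against control (y axis), with standard errors, for KLHL21 and the 4 counted genes on each side of it in chromosomal order (x axis, not to scale), in RL and JeKo-1. In RL the 5 genes from PLEKHG5 to KLHL21 and PHF13 lie above 0.6, and in JeKo-1 the highest value is 0.28 for ZBTB48; TAS1R1 has no JeKo-1 value.

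KLHL6 and KLHL24 are neighbours on chromosome 3, and both were higher in treated RL. The nearest gene on each outer side of this pair did not pass the test: YEATS2, past KLHL24, had log2 changes of 0.05 in RL (adjusted p = 0.528) and 0.03 in JeKo-1 (adjusted p = 0.775), and MCF2L2, past KLHL6, had 0.10 (adjusted p = 0.659) and 0.12 (adjusted p = 0.908). Among the next 3 genes on each side, added after their values had been seen, MCCC1 past MCF2L2 rose in RL by a log2 change of 0.19 (adjusted p = 0.0475), a call lost without either RL control (0.194 and 0.134) or the second treated RL library (0.297). Past YEATS2, PARL fell by 0.31 in RL (adjusted p = 0.00205), and ABCC5 rose by 0.29 in RL (adjusted p = 0.00965, but 0.0622 without RL control 1) and by 0.38 in JeKo-1 (adjusted p = 0.00151, but 0.146 in DESeq2).

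Genes with the most similar profile were found by the distance between log2(CPM + 1) values, centred over the 7 libraries, among 10028 genes averaging at least 5 CPM. The nearest to KLHL21 were the fructose transporter SLC2A5 at a distance of 0.428, ZBTB48 at 0.474 and RRBP1 at 0.749. SLC2A5 averaged 20.6 CPM in untreated RL and 72.4 CPM in treated RL, against 16.4 and 14.7 CPM in JeKo-1. KLHL14 was nearest to CD52, a surface glycoprotein of lymphocytes, at 0.310, then to MGAT3 at 0.334 and LTBP1 at 0.349. CD52 averaged 86.4 and 126 CPM in RL and 17.2 and 12.2 CPM in JeKo-1, in the same order of groups.

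KLHL24 was nearest to the phosphodiesterase PDE4D at 0.303, RCSD1 at 0.372 and the phosphatase CDC25B at 0.375. KLHL3 was nearest to the B-cell scaffold BANK1 at 0.244, RAP2A at 0.270 and RAP2C at 0.294. KLHL6 was nearest to C22orf13 at 0.142, TACC3 at 0.150 and LMBR1L at 0.159. KLHL2 (ATL2 at 0.0846, TTC13 at 0.0907 and COX18 at 0.0923) and KLHL9 (ZCCHC3 at 0.0840, C7orf70 at 0.0881 and ACBD6 at 0.0889) had the shortest distances, and these were the 2 genes with the smallest changes among those tested in both lines. The points of each profile share their libraries, and the distances are a description.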

How the data were processed

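RNA was sequenced from 7 libraries made with an unstranded TruSeq RNA kit. The submitters' processing notes list CASAVA 1.8, BWA, Partek 6.6 and the build hg19 (GRCh37) but assign no role to any of them. The values tested here are the raw counts of reads over 34917 RefSeq transcripts, as deposited and named per the file headers. Further columns the authors deposited are log2 values headed FRKM, which behave as quantile-normalized reads, and a log2 ratio for each line; the JeKo-1 ratio is headed as an ALK inhibitor. Only the ratio is quoted here. The joint table's 14 columns of per-sample values were not used.

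Transcripts of a gene repeat the same reads, so all entered the fit and 1 per gene is reported. Quasi-likelihood tests were run in edgeR 4.0.16 (R 4.3.3) after filterByExpr and TMM scaling, and p-values were adjusted over transcripts by Benjamini-Hochberg, with calls at 0.05. RL (25099 transcripts, 2 residual degrees of freedom) and JeKo-1 (23564, 1) were fitted separately, and the difference of responses and the untreated lines in a model of 4 groups (26362, 3). With 1 residual degree of freedom, small p-values in JeKo-1 lean on the spread shared across genes. The biological coefficient of variation was 4.51%, 3.91% and 4.35%. CPM use all transcripts and the TMM factors of all 7 libraries, and lengths came from GENCODE 29. Standard errors were taken from the F statistic (effect over its square root). Counts of libraries of a group scattered more than Poisson error (chi-square per degree of freedom 3.41 to 4.55), so none was counted as a duplicate. The procedure was also run on simulated counts, drawn independently per transcript with 1 common spread. Real transcripts of a gene repeat the same reads, so nothing is read from that run.

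The 7 genes and all lists were chosen with earlier results of these data known. Of each list the text names called genes averaging at least 5 CPM with large changes, with CUL3, RBX1 and KEAP1, the nearest gene on each side and the 3 nearest profiles. KLHL13, KLHL26 and KLHL29, and KLHL33 and TNFAIP3 in JeKo-1, were named after their values were seen. So were substrates of the 7 genes and partners of Aurora B that were not called. Alternatives were other scaling, no filter, 1 transcript per gene, a joint fit, a replicate block, DESeq2 1.42.0 and limma-voom (limma 3.58.1). Each library except the single JeKo-1 control was also left out in turn. A JeKo-1 library was left out within the joint fit of 4 groups, so for JeKo-1 responses the model changed along with the library. The summed level of 1 marker list is not reported here.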

Additional observations from a re-analysis of the deposited data

Results flagged for a closer look

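The 6 results below drew attention because RL and JeKo-1 moved differently. KLHL14 and KLHL21 were higher in every treated RL library and lower in every treated JeKo-1 library than in the controls, with differences of -1.13 and -2.29 on the log2 scale, JeKo-1 minus RL. As both genes were chosen with these responses known, they are given as values, and no p is given for them. In edgeR's quasi-likelihood test of the line-by-treatment term, 7 of 28 other KLHL genes passed, and the 4 of them that averaged at least 5 CPM over the libraries and were tested in both lines are given here. KLHL23 had a difference of 0.48 (adjusted p = 0.0029). KLHL25, an adaptor reported to act in translation control, had -0.56 (adjusted p = 0.019), KLHL22, an adaptor for PLK1 in mitosis, had -0.50 (adjusted p = 0.0361), and ENC1 had -0.66 (adjusted p = 0.0382).

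The calls of KLHL22, KLHL25 and ENC1 were each lost without RL control 2 (adjusted p = 0.134, 0.0643 and 0.0858), without the first treated JeKo-1 library (adjusted p = 0.125, 0.0992 and 0.157) and in DESeq2 (adjusted p = 0.229, 0.105 and 0.118). KLHL22 and ENC1 were also lost without the second treated RL library (adjusted p = 0.118 and 0.0637).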

How the results depend on the processing

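The direction of every called value was kept under all alternatives run, and no scaling moved the median of all genes by over 0.1 on the log2 scale. The largest shift was -0.06. For the responses, KLHL21 ranged from 1.97 to 2.23 in RL and from -0.29 to -0.08 in JeKo-1, KLHL14 from 0.37 to 0.43 and from -0.77 to -0.69, KLHL24 from 0.62 to 0.93 and from 0.52 to 0.69, and KLHL6 from 0.59 to 0.65 and from 0.14 to 0.20. KLHL3 ranged from -0.27 to 0.29 in RL. Counts of calls depended on the tool: with DESeq2, 2871 genes passed in RL (4543 in edgeR), 1560 in JeKo-1 (3970) and 1861 for the difference (2815), and the split of higher and lower calls went from 1878 and 2092 to 894 and 666 in JeKo-1 and from 1397 and 1418 to 1118 and 743 for the difference. Of the other KLHL genes DESeq2 called 4 in RL, 1 in JeKo-1 and 2 for the difference, and of the CUL3 and NEDD8 genes 3 and 1. The JeKo-1 count of the latter was 3 with upper quartile scaling and 3 with no filter. Leaving out 1 library gave 3345 to 4326 genes in RL, 2397 to 2931 in JeKo-1 and 1947 to 2872 for the difference, with 2397 without the first treated JeKo-1 library. It gave 5 to 10, 4 to 6 and 3 to 7 other KLHL genes, with 5 without RL control 2 or the second treated RL library, 4 without the first treated JeKo-1 library, and 3 for the difference without that library or RL control 2. It gave 3 to 7 CUL3 and NEDD8 genes in RL, with 3 without either control, and 2 in JeKo-1 without either treated library. The cause of these moves was not tested. Each JeKo-1 library was left out within the joint fit of 4 groups, which with all libraries kept gave 3521 genes in JeKo-1. That joint fit gave 8 other KLHL genes and 4 CUL3 and NEDD8 genes there. RL controls and treated libraries share only a replicate number (r = -0.05 over 2 pairs), and with it as a replicate block 4416 genes and 10 other KLHL genes passed in RL. Of 1634 other values under an alternative, 1528 kept their side of the threshold, stayed within 1.5 times as counts, or moved by no more than the SD of the treated libraries. The KLHL14 response in RL moved by more than that SD under 8 alternatives, within its range of 0.37 to 0.43. The counts for untreated lines stayed within 1.5 times under every alternative run. The single JeKo-1 control cannot be left out, and KLHL3 at 2 to 10 counts is limited by depth there.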

Other observations

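Of 12 listed scaffolds and linker or RING subunits of the other cullin ligases, 2 rose and 3 fell in RL, or 41.7% against 30.4% of all tested genes, and 1 rose in JeKo-1, or 8.33% against 28.3%; the difference between these counts was not tested. In RL only the calls of CUL4A and CUL4B held on leaving out each library in turn, and those of CUL1, CUL5 and TCEB2 did not. CUL4B, a scaffold of DDB1-based ligases, rose in RL from 89.2 and 81.2 CPM to 111 and 110.2 CPM (log2 fold change 0.38, adjusted p = 0.000232), whereas its paralog CUL4A fell from 59.5 and 59.8 CPM to 48.4 and 50.3 CPM (log2 fold change -0.26, adjusted p = 0.00181). In JeKo-1 their log2 changes were 0.01 (adjusted p = 0.914) and 0.13 (adjusted p = 0.136). The line-by-treatment term passed for both, at -0.36 for CUL4B (adjusted p = 0.0122, but 0.0602 without RL control 2 and 0.0663 without the second treated JeKo-1 library) and 0.41 for CUL4A (adjusted p = 0.00129). TCEB2, elongin B of the CUL2 and CUL5 ligases, rose in JeKo-1 from 70.1 CPM to 81.0 and 92.9 CPM (log2 fold change 0.30, adjusted p = 0.000106).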
